A study of Mus musculus with 11 samples.

Results

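The genes described here take up, store, activate and burn fatty acids in the heart. They were chosen by symbol, 35 genes in all, from the 46517 gene identifiers of a count table of mouse ventricular myocardium. All 35 were found in the table and all 35 passed the filter on low counts. They were grouped by step into uptake, release of stored fat, activation, malonyl-CoA, the carnitine shuttle, mitochondrial beta-oxidation, peroxisomal oxidation, electron transfer, and thioesterases with the carrier Ucp3.

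RNA came from bulk ventricular tissue of mice that all carried a Cre recombinase driven by the Tnnt2 promoter, which is active in cardiomyocytes. Mice labelled Lmnb2 KO were also Lmnb2 Flox/Flox, so that the Cre can remove lamin B2, a filament protein under the nuclear envelope, from cardiomyocytes. Controls, labelled Lmnb2 WT (in WT sham 2 only WT), had the Cre without the floxed gene. Surgery was done at 10 to 12 weeks of age and was either a sham operation or TAC, transverse aortic constriction, in which a suture around the aortic arch makes the left ventricle pump against a higher pressure. Isoflurane anaesthesia and bupivacaine after the operation are described for TAC. There were 2 libraries of WT sham hearts and 3 of hearts of each other group (KO sham, WT after TAC, KO after TAC). How long after surgery the hearts were taken is not given in the sources used here. No label says that each library is a different animal, so p-values measure the spread between these libraries. The design asks what TAC changed in each genotype and whether the genotypes differed at rest or under load.

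The adult heart draws most of its ATP from fatty acids. Long-chain fatty acids enter the cardiomyocyte from circulating fat, are bound to coenzyme A, cross into mitochondria as carnitine esters, and are shortened by repeated rounds of beta-oxidation whose electrons pass to the respiratory chain. Transcripts of this pathway are known to be controlled by the nuclear receptor PPAR alpha with its partner RXR, by estrogen-related receptors and by their coactivators.

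Total counts were 14770383 to 17333227 per library. Transcripts of the mitochondrial genome took 32.8% to 49.4% of counts in the sham libraries and 13.2% to 35.9% after TAC, and mRNAs of ribosomal proteins took 0.654% to 1.73% and 0.874% to 6.78%. Mitochondrial shares were highest and ribosomal protein shares lowest of their groups in WT TAC 3 and KO TAC 1. Levels are given in CPM, counts scaled by the TMM method to a common library size. The level of Lmnb2 was 4.44 and 3.86 CPM in the WT sham libraries, 0.648, 1.81 and 2.43 CPM in the KO sham, 2.86, 2.16 and 6.69 CPM in the WT TAC and 9.72, 3.23 and 4.46 CPM in the KO TAC libraries. All KO sham libraries were below both WT sham libraries, while after TAC the levels overlapped and the highest was KO TAC 1. WT and KO therefore stand below for the libraries labelled so. The summed level of 12 cardiomyocyte markers was 59875 to 81613 CPM in sham and 41058 to 62370 CPM in TAC libraries, so the labelled tissue carried its defining markers in all 11. The sum of 10 macrophage markers ran from 230.1 to 451 CPM in sham and from 444 to 2475 CPM after TAC, and that of 10 fibroblast markers from 757 to 1101 and from 2235 to 5474 CPM. Over both genotypes 10 of 10 macrophage and 6 of 10 fibroblast markers were higher after TAC, and 4 of 12 cardiomyocyte markers were lower.

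After TAC transcripts of fatty acid use were lower, with at least 1 gene called lower at each of the 9 steps. Fitted over both genotypes, with 6 TAC against 5 sham libraries and genotype as a term, 27 of the 35 genes were lower, 0 were higher and 8 did not pass (edgeR quasi-likelihood test, 2-sided, Benjamini-Hochberg adjusted p under 0.05 over 14619 genes). Of all genes tested 8.96% were lower and 10.6% higher in that comparison. The median log2 change of the 35 genes was -1.03, against 0.05 over all genes tested, and 33 of 35 were below 0. The largest falls were those of Acot1 (-1.95 ± 0.33, log2 change with its standard error), Acaa2 (-1.81 ± 0.23) and Ucp3 (-1.79 ± 0.45). Of the 27 calls, 16 held in all 21 alternative analyses and 11 were lost in at least 1. These 16 were Acaa2, Acadm, Acadvl, Acat1, Decr1, Eci1, Hadh, Hadha and Hadhb of beta-oxidation, Etfa and Etfdh of electron transfer, Acot1, Acot2 and Ucp3, Cpt2 and Slc27a1. None of them belonged to release of stored fat, activation, malonyl-CoA or peroxisomal oxidation, where every call was lost in at least 1 alternative.

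Within each genotype the counts were smaller. In WT 13 genes were lower and 0 higher (median -1.07 against 0.05 over all genes), where 3.04% of all genes were lower and 3.88% higher. In KO 14 were lower and 0 higher (median -1.12 against 0.03), where 1.37% of all genes were lower and 3.32% higher. At an unadjusted p under 0.05, 22 of the 35 genes passed in WT and 26 in KO, all lower, where 11.9% and 8.08% of all tested genes were lower at that p. In both genotypes limma-voom and DESeq2 also called 0 of the 35 higher. Lower in both genotypes were 10 genes (Acaa2, Acadm, Acadvl, Acat1, Decr1, Eci1, Etfdh, Hadh, Hadhb and Slc27a1), which is 76.9% of the WT and 71.4% of the KO calls. Acsl1, Cpt2 and Hadha passed in WT alone and Acot1, Acot2, Ehhadh and Etfa in KO alone, but the difference between the genotypes did not pass for any of these genes (below). With so few libraries these counts changed with single samples. In WT 0 genes were lower without WT sham 1 or without WT sham 2, where the median of the 35 was -0.95 and -1.20 and the calls over all genes went from 1011 to 30 and 88. In WT 2 were lower without WT TAC 1 or without WT TAC 2, where 398 and 363 of all genes were called. In KO 1 was lower without KO sham 3 or without KO TAC 2, 3 without KO sham 1, 5 without KO TAC 3 and 6 without KO sham 2, with medians of -1.10 to -0.96. In that order, calls over all genes in KO went from 687 to 255, 309, 226, 389 and 312. Without both WT TAC 3 and KO TAC 1, the TAC libraries that stood apart, 21 genes were lower in WT and 23 in KO, and 1, Acot13, was higher in WT. Calls over all genes rose in the same setting, to 4373 in WT and 2117 from 687 in KO.

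On the TMM scale, used here and below for single genes, the levels separated the surgeries. The TMM factors themselves split by surgery, 0.724 to 0.957 in the sham and 1.03 to 1.24 in the TAC libraries. Dividing by them raises sham levels relative to TAC levels. Overlap of single genes on library totals was not counted. Every TAC library was below every sham library of the same genotype for 25 of the 35 genes in WT and 27 in KO, and no gene had every TAC library above. All 6 TAC libraries were below all 5 sham libraries for 20 genes. The same held for 21.2%, 12.8% and 7.01% of all tested genes. The summed level of the 35 genes was 22996 to 26533 CPM in the sham and 13092 to 14513 CPM in the TAC libraries. As a share of all counts the sum was 1.73% to 2.41% in sham and 1.47% to 1.71% in TAC libraries. As a share of counts without the mitochondrial genome it was 3.22% to 3.98% and 1.69% to 2.67%. The surgeries did not overlap on any of these scales, though by the smallest margin on the share of all counts. In bulk tissue fewer cardiomyocytes and less RNA per cardiomyocyte cannot be told apart, and the part of the lower cardiomyocyte marker sum in these results was not tested.

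**Figure D1:**
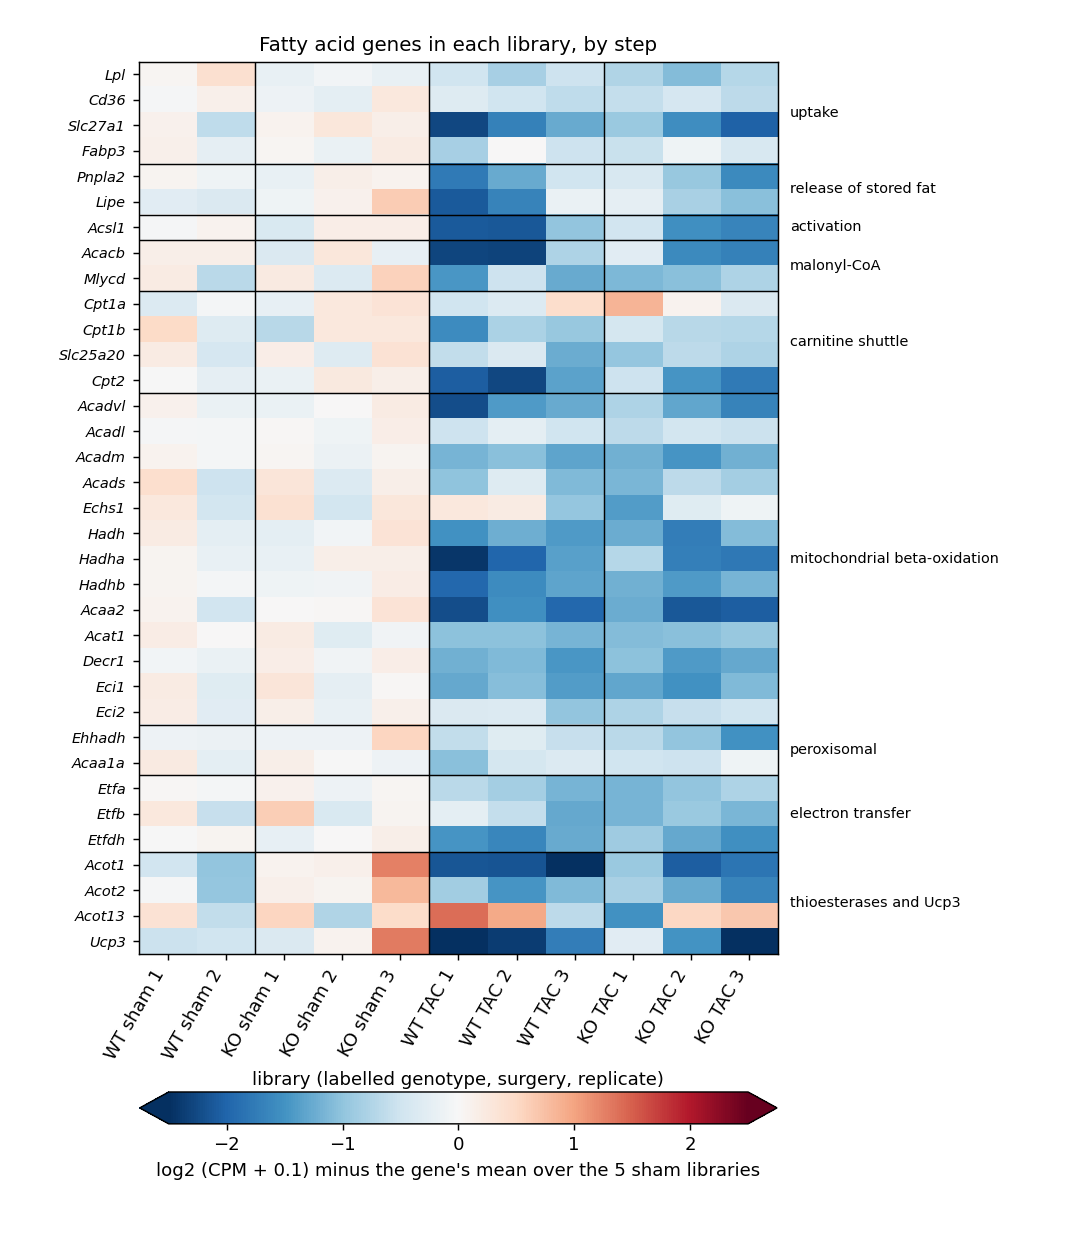
Level of each of the 35 genes (rows, by step) in each of the 11 libraries (columns), as log2 of CPM plus 0.1 minus the gene's mean over the 5 sham libraries; blue is lower and red higher. The 6 TAC columns are blue for most rows, and the clearest red cells after TAC are those of Cpt1a and Acot13.

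Scaling set the size of these changes. When TMM was replaced by library totals the median change of all genes moved from 0.05 to 0.45 in the comparison over both genotypes, and that of the 35 genes from -1.03 to -0.64. Under this scaling 17 of the 35 genes were lower, and 2 in WT and 2 in KO. Each title ends in M (8 libraries) or F (KO sham 2, WT TAC 1 and KO TAC 3), and M titles alone below means the fit without those 3. Title numbers of the sham and TAC libraries do not overlap, so a batch that follows them cannot be told apart from surgery.

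Levels per kilobase of exon, used to compare genes, differed widely in WT sham hearts. The length was that of all annotated exons of a gene together, 823 bases for Fabp3 and 10478 for Lpl. The ranks therefore depend on the annotation. Fabp3, the fatty acid binding protein of the cardiomyocyte cytosol, was the most abundant at 2204 CPM per kb, followed by Acadl (701), Acot13 (694), Lpl (664) and Cd36 (631). At the low end stood Lipe (2.74), Cpt1b (2.26) and Acot1 (0.983). The levels of Cpt1b and Acot1 are uncertain because of overlapping or near-identical genes (below), so their ranks are too. Of the 5 most abundant genes Lpl was lower after TAC over both genotypes and the other 4 did not pass. Acaa2, Acadm, Etfa, Acat1 and Hadhb, which ranked 6 to 10, were all lower. The scarcest, Acot1, had the largest fall, while Lipe, at rank 33, did not pass.

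Uptake begins at the vessel wall, where lipoprotein lipase, encoded by Lpl (chr8:68880491-68907448, GRCm38), frees fatty acids from circulating triglycerides. Lpl measured 6109 and 7809 CPM in WT sham, 5144, 5579 and 5163 in KO sham, 4182, 3332 and 4098 in WT TAC and 3492, 2782 and 3592 in KO TAC. No TAC library reached the lowest sham library. Lpl was lower over both genotypes (-0.76 ± 0.18, or 1.69-fold; edgeR adjusted p = 0.0114), a call lost with library totals, and did not pass in WT (-0.85) or KO (-0.69). The membrane transporter gene Slc27a1 (chr8:71568882-71587302), which encodes FATP1, was lower by a larger factor. Levels of Slc27a1 were 84.8 and 50.6 CPM in WT sham, 83.0, 94.9 and 87.1 in KO sham, 16.1, 24.4 and 32.7 in WT TAC and 41.0, 26.4 and 19.2 in KO TAC. The sham and TAC levels of Slc27a1 did not overlap, although WT sham 2 was the lowest of the sham libraries. It was lower in WT (-1.47 ± 0.37; edgeR adjusted p = 0.0358) and in KO (-1.61 ± 0.34; adjusted p = 0.0211), and 2.93-fold lower over both. The WT call of Slc27a1 was lost in 13 of 22 alternatives.

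The remaining uptake genes did not pass. Cd36 (chr5:17781690-17888801), the main fatty acid translocase of the heart muscle membrane, measured 2139.6 and 2389 CPM in WT sham, 1989, 1847 and 2602 in KO sham, 1733, 1538 and 1398 in WT TAC and 1447, 1629 and 1388 in KO TAC. All 6 TAC libraries were below all 5 sham libraries, by a small margin. The change of Cd36 over both genotypes was -0.53 ± 0.18 and did not pass (edgeR adjusted p = 0.051), though it passed with DESeq2, with limma-voom, with the ribosomal protein covariate and without WT TAC 1. Fabp3 (chr4:130308595-130315463) ranged over 1597 to 2128 CPM in sham and 1038 to 1865 CPM in TAC libraries, with overlap in both genotypes (-0.37 ± 0.20; adjusted p = 0.221). Of the 4 uptake genes 2 were lower and 0 higher.

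Stored triglyceride is opened by Pnpla2 (chr7:141455198-141460743), which encodes adipose triglyceride lipase, and by Lipe (chr7:25379527-25398710), which encodes hormone-sensitive lipase. Pnpla2 measured 238 and 210.1 CPM in WT sham, 197, 248 and 239 in KO sham, 65.8, 93.7 and 161 in WT TAC and 170.1, 117 and 74.5 in KO TAC. Every TAC library was below every sham library, with WT TAC 3 and KO TAC 1 nearest to them. Pnpla2 was lower over both genotypes (-0.99 ± 0.26, 1.98-fold; edgeR adjusted p = 0.0172), and the call was lost with library totals, with M titles alone, and without WT sham 1 or KO TAC 2. Lipe measured 16.6 and 15.6 CPM in WT sham, 18.8, 21.8 and 31.5 in KO sham, 4.64, 6.25 and 18.01 in WT TAC and 17.3, 11.4 and 9.78 in KO TAC. Here WT TAC 3 and KO TAC 1 lay within the sham range and the other 4 TAC libraries below it. The change of Lipe over both genotypes was -0.83 ± 0.32 (adjusted p = 0.0844), and it passed with limma-voom, with no filter on low counts, without WT TAC 3, without KO TAC 1 and without both. Fat cells also express both lipases. Their marker Adipoq, which encodes adiponectin, measured 6.90 CPM in WT TAC 3 and 0.0476 CPM in KO TAC 1, and what fat cells add to Lipe was not tested.

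Activation to acyl-CoA depends in the heart chiefly on Acsl1 (chr8:46471037-46536051). Levels of Acsl1 were 876 and 949 CPM in WT sham and 693, 999.9 and 1006 in KO sham, and 209, 206 and 452 in WT TAC and 645, 310.0 and 284 in KO TAC. The TAC libraries lay below the sham libraries, with KO TAC 1 close to the lowest of them, KO sham 1. Acsl1 was 3.16-fold lower in WT (-1.66 ± 0.44; edgeR adjusted p = 0.041), did not pass in KO (-1.12 ± 0.40; adjusted p = 0.14) and was lower over both (-1.36 ± 0.29; adjusted p = 0.00595). The WT call of Acsl1 was lost in 13 of 22 alternatives, and the call over both genotypes with M titles alone.

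Malonyl-CoA blocks the entry of acyl groups into mitochondria, and the list held the gene that makes it at the mitochondrial surface, Acacb (acetyl-CoA carboxylase 2, chr5:114146535-114250761), and the gene that removes it, Mlycd (malonyl-CoA decarboxylase, chr8:119394878-119411102). Both were lower over both genotypes, so the maker and the remover moved in the same direction. Acacb measured 151 and 151 CPM in WT sham, 105, 166 and 118 in KO sham, 27.8, 27.3 and 79.6 in WT TAC and 112, 45.2 and 42.2 in KO TAC. In WT the surgeries did not overlap, and in KO only KO TAC 1 reached the sham range. The change of Acacb was -1.32 ± 0.35 (edgeR adjusted p = 0.018), lost with library totals, with M titles alone, and without WT sham 1, WT sham 2, KO TAC 2 or KO TAC 3. Mlycd measured 116 and 62.9 CPM in WT sham, 118, 79.6 and 151 in KO sham, 36.5, 70.8 and 41.7 in WT TAC and 46.4, 48.4 and 59.2 in KO TAC. In KO its TAC libraries were all below the sham libraries, while in WT the second TAC library lay above the second sham library. Its change was -1.03 ± 0.25 (adjusted p = 0.0111), lost with library totals and without WT sham 1.

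In the carnitine shuttle the outer enzyme CPT1 forms acylcarnitine, the carrier encoded by Slc25a20 moves it across the inner membrane, and CPT2 restores acyl-CoA inside. Cpt2 (chr4:107903981-107923610) measured 206 and 179 CPM in WT sham, 187, 245 and 232 in KO sham, 49.5, 42.7 and 82.6 in WT TAC and 146, 74.7 and 60.7 in KO TAC. All TAC libraries were below all sham libraries, and KO TAC 1 was the highest of them. Cpt2 was 3.30-fold lower in WT (-1.72 ± 0.39; edgeR adjusted p = 0.0236), did not pass in KO (-1.24 ± 0.36; adjusted p = 0.0696) and was lower over both (-1.46 ± 0.26; adjusted p = 0.00212). Slc25a20 (chr9:108662088-108684641) measured 219 and 141 CPM in WT sham, 211, 151 and 244 in KO sham, 123, 147 and 79.7 in WT TAC and 96.5, 120.0 and 111 in KO TAC. The groups separated in KO and overlapped in WT, where WT TAC 2 was above WT sham 2. Its fall over both genotypes (-0.77 ± 0.22; adjusted p = 0.0242) was lost with library totals, with M titles alone, and without WT sham 1, KO sham 3, KO TAC 2 or KO TAC 3.

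The 2 CPT1 genes differed. Cpt1b (chr15:89416405-89425863), the muscle isoform, measured 9.75 and 5.51 CPM in WT sham, 4.26, 8.32 and 8.33 in KO sham, 2.26, 3.97 and 3.53 in WT TAC and 5.05, 4.22 and 4.17 in KO TAC. It was lower over both genotypes (-0.90 ± 0.27; edgeR adjusted p = 0.0328), with overlap in KO. The call of Cpt1b was lost in 11 alternatives: library totals, the ribosomal protein covariate, M titles alone, and without WT sham 1 or without any 1 of KO sham 2 and 3, WT TAC 1 to 3, or KO TAC 2 and 3. In GENCODE M21 the read-through gene Gm44502 overlaps Cpt1b on the same strand. Gm44502 is not among the gene identifiers of the deposited counts, and the annotation used for counting is not given. Whether reads of Cpt1b were lost to this overlap is therefore not known, and its level is uncertain. Cpt1a (chr19:3322334-3385733), the liver isoform, ranged over 20.4 to 32.7 CPM in sham and 18.3 to 47.1 CPM in TAC libraries, the highest being KO TAC 1. The log2 change of Cpt1a was 0.13 ± 0.25 over both genotypes (edgeR adjusted p = 0.758) and below 0 without KO TAC 1. Of the 4 shuttle genes 3 were lower and 0 higher.

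Mitochondrial beta-oxidation held the largest number of calls, with 11 of 13 genes lower over both genotypes (median -1.24), 9 in WT and 8 in KO. Among the acyl-CoA dehydrogenases, which open each round and are divided by chain length, Acadm (medium chain, chr3:153922357-153944632) separated the surgeries by a wide margin. Levels were 1726 and 1585 CPM in WT sham, 1681, 1483 and 1706 in KO sham, 729.9, 791 and 657 in WT TAC and 713, 591 and 707 in KO TAC. The highest TAC library was WT TAC 2 (791 CPM) and the lowest sham library KO sham 2 (1483 CPM). Acadm was lower in WT (-1.19 ± 0.26; edgeR adjusted p = 0.0221) and in KO (-1.28 ± 0.24; adjusted p = 0.0116), 2.36-fold over both. Acadvl (very long chain) was 2.59-fold lower, with 350.1 to 452 CPM in sham and 84.5 to 231 CPM in TAC libraries. Acads (short chain) was 1.83-fold lower, a call lost with library totals, with M titles alone and without WT sham 1. Acadl (long chain) had a log2 change of -0.49 ± 0.17 and did not pass (adjusted p = 0.0589), although its 6 TAC libraries (926 to 1225 CPM) were all below its 5 sham libraries (1349.8 to 1638 CPM). It passed with DESeq2, with limma-voom, with the ribosomal protein covariate and without WT TAC 2.

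The mitochondrial trifunctional protein, which carries out the later reactions of each round on long chains, is built from the products of Hadha (alpha subunit, chr5:30118304-30155162, minus strand) and Hadhb (beta subunit, chr5:30155248-30184593, plus strand). The genes lie head to head, and the whole stretch between their annotated starts is shown because both fell after TAC. It spans chr5:30155163-30155247 (85 bases, GRCm38, plus strand, from the RefSeq promoter table, with no letters marked).
Hadha to Hadhb gap: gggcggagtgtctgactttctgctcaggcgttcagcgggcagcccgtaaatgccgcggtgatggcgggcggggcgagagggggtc
Hadhb measured 1402 and 1279.8 CPM in WT sham, 1235, 1257 and 1505 in KO sham, 340.3, 446 and 536 in WT TAC and 576, 501 and 591 in KO TAC. The highest TAC library, KO TAC 3, lay far below the lowest sham library, KO sham 1. Hadhb was 3.04-fold lower in WT (-1.60 ± 0.29; edgeR adjusted p = 0.0087) and 2.40-fold lower in KO (-1.26 ± 0.26; adjusted p = 0.0185). Hadha ranged over 1069 to 1359 CPM in sham and 226 to 744 CPM in TAC libraries, lower in WT (-1.80 ± 0.40; adjusted p = 0.022) and just short of the threshold in KO (-1.36 ± 0.36; adjusted p = 0.0529). KO TAC 1 was the highest TAC library for Hadha, at 744 CPM, but not for Hadhb.

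Acaa2 (chr18:74779197-74806208), the mitochondrial thiolase that splits off acetyl-CoA, had the largest fall of the beta-oxidation genes over both genotypes, while in WT that of Hadha was larger. Levels of Acaa2 were 874 and 595 CPM in WT sham, 833, 849 and 1052 in KO sham, 178, 286 and 211 in WT TAC and 348, 190.2 and 197 in KO TAC. The highest TAC library, KO TAC 1, was still well below the lowest sham library, WT sham 2. Acaa2 was 3.27-fold lower in WT (-1.71 ± 0.35; edgeR adjusted p = 0.0168) and 3.72-fold lower in KO (-1.89 ± 0.33; adjusted p = 0.00705). Hadh, the hydroxyacyl-CoA dehydrogenase for shorter chains, and Acat1, the thiolase for acetoacetyl-CoA, were 2.59-fold and 2.08-fold lower over both genotypes. Double bonds are handled by the reductase Decr1 and the isomerases Eci1 and Eci2, which were 2.35-fold, 2.44-fold and 1.499-fold lower. The call of Eci2 was lost in 11 alternatives: library totals, no filter on low counts, the title letter as a covariate, M titles alone, and without WT sham 1, KO sham 1, KO sham 2, KO sham 3, WT TAC 3, KO TAC 2 or KO TAC 3.

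Echs1, the hydratase that acts after the dehydrogenases, did not pass. Echs1 measured 571 and 346 CPM in WT sham, 624, 346 and 576 in KO sham, 569.7, 547 and 244 in WT TAC and 179.8, 388 and 445 in KO TAC. The groups overlapped in both genotypes, with -0.02 ± 0.47 in WT and -0.61 ± 0.42 in KO (edgeR adjusted p = 0.989 and 0.486). The 4 libraries with the lowest Echs1 were the second of each sham group, KO TAC 1 and WT TAC 3, which were also the 4 with the lowest ribosomal protein share. With that share as a covariate Echs1 was called lower over both genotypes, and with library totals its log2 change was 0.04. Echs1 was given in every library after its values were seen.

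**Figure D2:**
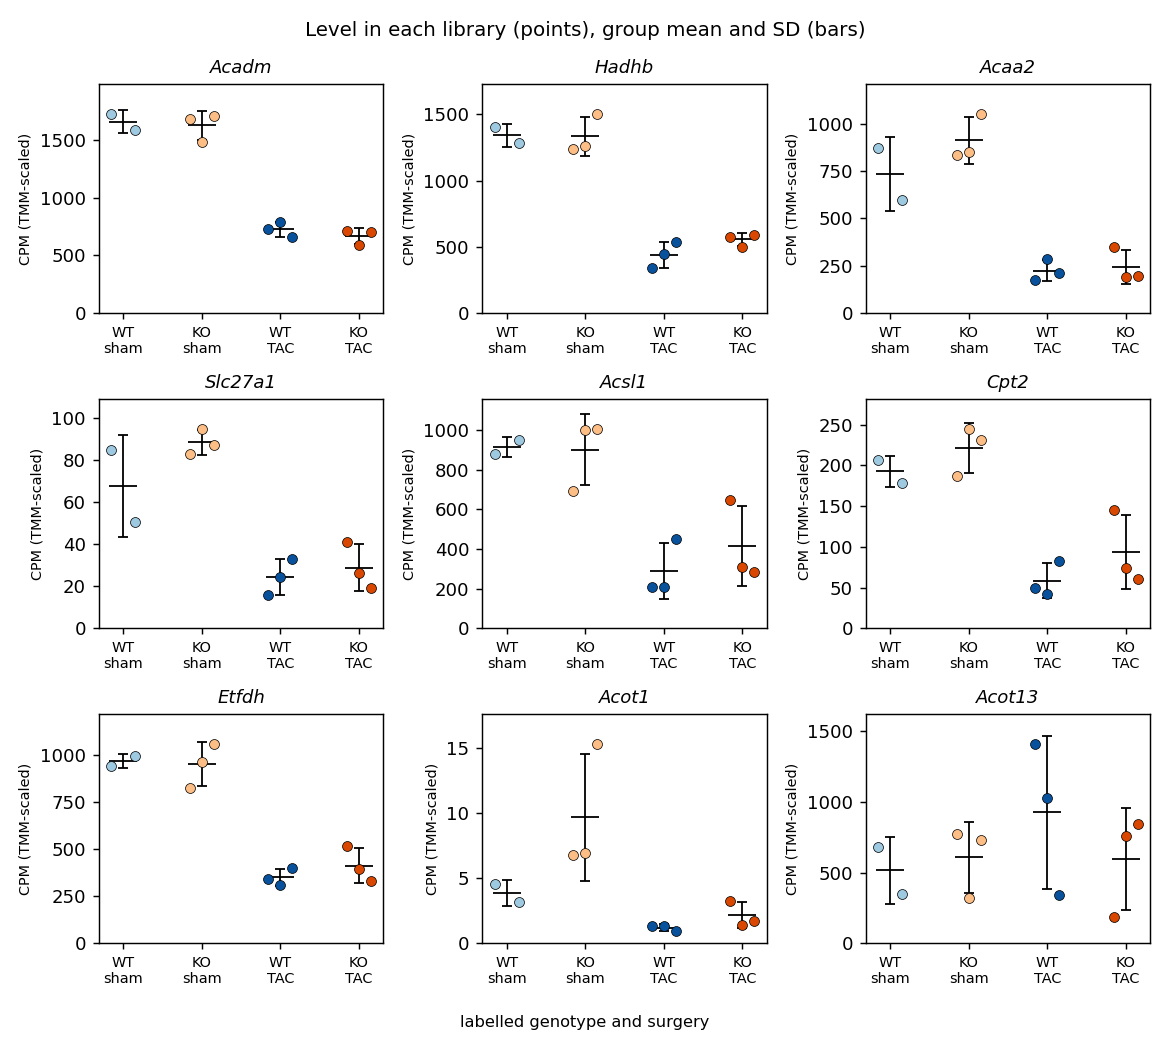
Level in CPM of 9 genes in each library (points) with the group mean and SD (bars), in 2 WT sham libraries and 3 of each other group; axes start at 0. For Acadm, Hadhb, Acaa2 and Etfdh all TAC points lie well below all sham points, and for Slc27a1 they lie below by a smaller margin. KO TAC 1 is the highest TAC point for Acsl1, Cpt2 and Acot1, and Acot13 spreads widely in every group.

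Peroxisomes shorten fatty acids that mitochondria take up poorly. Ehhadh (chr16:21761287-21787807), the bifunctional enzyme of that pathway, measured 10.7 and 10.7 CPM in WT sham, 10.7, 10.9 and 17.1 in KO sham, 7.68, 9.58 and 7.89 in WT TAC and 7.38, 5.89 and 4.06 in KO TAC. All 6 TAC libraries were below all 5 sham libraries, and KO sham 3 stood above the other sham libraries. Ehhadh was lower in KO (-1.16 ± 0.30; edgeR adjusted p = 0.0483), did not pass in WT (-0.36 ± 0.33; adjusted p = 0.523) and was lower over both (-0.80 ± 0.24; adjusted p = 0.0326). That last call was lost in 8 alternatives: library totals, the ribosomal protein covariate, M titles alone, and without WT sham 1, KO sham 2, KO sham 3, KO TAC 2 or KO TAC 3. Acaa1a (chr9:119339676-119350299), a peroxisomal thiolase with a close copy in Acaa1b, measured 41.2 and 29.9 CPM in WT sham, 39.0, 35.2 and 32.1 in KO sham, 17.03, 25.9 and 27.7 in WT TAC and 25.0, 24.7 and 32.5 in KO TAC. KO TAC 3 lay within the KO sham range, and the change over both genotypes did not pass (-0.47 ± 0.18; adjusted p = 0.087).

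Electrons from the acyl-CoA dehydrogenases pass to the flavoprotein ETF, a dimer of the Etfa and Etfb products, and then to ubiquinone through the enzyme encoded by Etfdh. All 3 genes were lower over both genotypes. Etfdh (chr3:79603788-79629500) measured 941 and 993 CPM in WT sham, 825, 963 and 1059 in KO sham, 342, 309 and 397 in WT TAC and 515, 392 and 329 in KO TAC. The sham and TAC levels were far apart, with KO TAC 1 the highest TAC library. Etfdh was lower in WT (-1.47 ± 0.29; edgeR adjusted p = 0.014) and in KO (-1.20 ± 0.26; adjusted p = 0.0233). Etfa (chr9:55454508-55512243) measured 775 and 730.4 CPM in WT sham, 819, 692 and 778 in KO sham, 472, 419 and 337 in WT TAC and 337, 380.3 and 442 in KO TAC. Its groups did not overlap, and it passed in KO (-0.98 ± 0.25; adjusted p = 0.0429) and not in WT (-0.88 ± 0.27; adjusted p = 0.0698). Etfb (chr7:43444083-43457800), the partner subunit, measured 82.0 and 46.0 CPM in WT sham, 105, 52.9 and 72.2 in KO sham, 58.2, 45.2 and 28.2 in WT TAC and 30.5, 36.03 and 30.9 in KO TAC. Etfb separated the surgeries in KO and overlapped in WT, where WT TAC 1 exceeded WT sham 2. It passed over both genotypes (-0.94 ± 0.26; adjusted p = 0.0242), a call lost with library totals and without WT sham 1, KO sham 1, KO TAC 2 or KO TAC 3.

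Thioesterases take coenzyme A off again, and the mitochondrial carrier Ucp3 is a known target of fatty acid signalling. Acot1 (cytosolic, chr12:84009490-84018371) and Acot2 (mitochondrial, chr12:83987861-83993873) are neighbours of near-identical sequence, so the split of reads between them is uncertain. Acot1 measured 4.56 and 3.15 CPM in WT sham, 6.76, 6.93 and 15.3 in KO sham, 1.37, 1.34 and 0.934 in WT TAC and 3.29, 1.44 and 1.71 in KO TAC. The surgeries separated within each genotype, although KO TAC 1 lay just above WT sham 2, and KO sham 3 stood far above every other library. Acot1 was 4.48-fold lower in KO (-2.16 ± 0.45; edgeR adjusted p = 0.0184) and did not pass in WT (-1.66 ± 0.50; adjusted p = 0.0629). Acot2 measured 34.99 and 18.3 CPM in WT sham, 39.1, 37.8 and 63.3 in KO sham, 19.6, 12.8 and 16.8 in WT TAC and 20.5, 14.9 and 11.3 in KO TAC. It separated the surgeries in KO, where it was lower (-1.58 ± 0.34; adjusted p = 0.0208), and overlapped in WT, where it did not pass (-0.70 ± 0.37; adjusted p = 0.251).

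Ucp3 (chr7:100472990-100486432) measured 32.6 and 33.2 CPM in WT sham, 36.7, 49.9 and 116 in KO sham, 4.64, 8.99 and 14.1 in WT TAC and 38.4, 16.7 and 4.97 in KO TAC. The KO TAC libraries spread widely, with KO TAC 3 lowest and KO TAC 1 above KO sham 1. The change passed over both genotypes (-1.79 ± 0.45, 3.45-fold; edgeR adjusted p = 0.015) and in neither alone (-1.83 in WT and -1.75 in KO). Acot13 (chr13:24817948-24831540), a thioesterase associated with mitochondria, was the exception of this step. Its levels were 684 and 349 CPM in WT sham, 773, 318 and 731 in KO sham, 1411, 1025 and 339 in WT TAC and 186, 762 and 845 in KO TAC, values given after they were seen. WT TAC 1 and WT TAC 2 were the highest of all libraries and KO TAC 1 the lowest. Its change was 0.84 ± 0.69 in WT and -0.02 ± 0.60 in KO (adjusted p = 0.468 and 0.99). The 4 libraries with the lowest ribosomal protein share also had the lowest Acot13, and WT TAC 1 and WT TAC 2, the libraries with the highest share, had the highest. With the share as a covariate the log2 change of Acot13 in WT was -0.81 (edgeR adjusted p = 0.37).

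**Figure D3:**
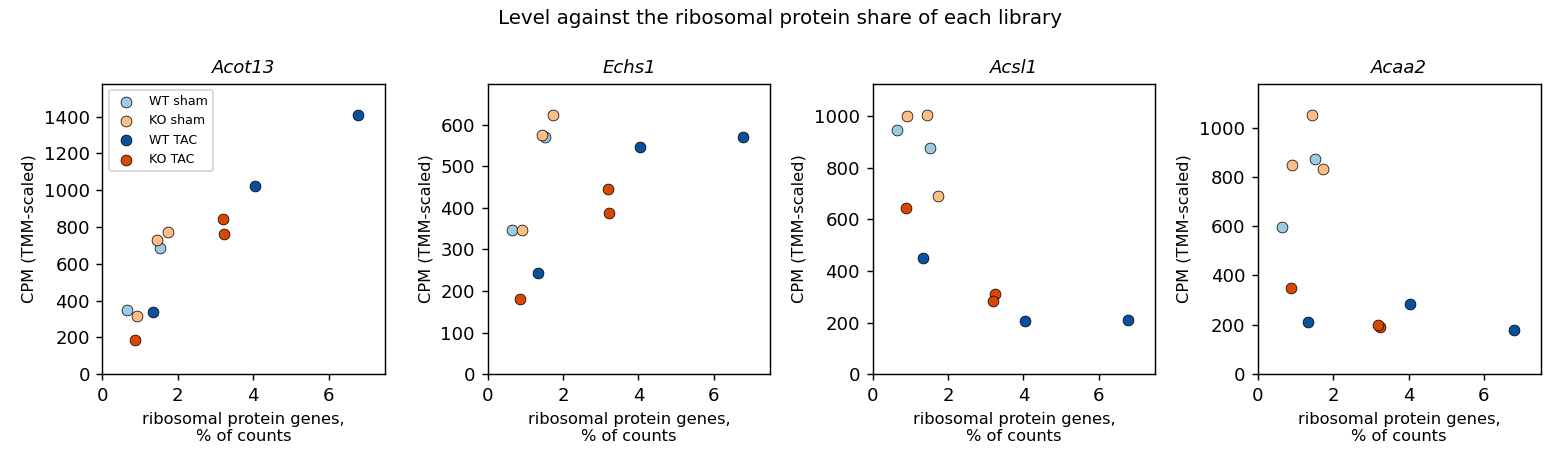
Level in CPM (vertical axis) of Acot13, Echs1, Acsl1 and Acaa2 against the percent of counts on ribosomal protein genes (horizontal axis), with 1 point per library coloured by group. Acot13 is higher where the share is higher. Echs1 is lowest in the libraries with the lowest share and does not rise steadily with the share above them. Acsl1 is lower in the TAC libraries with a high share, and Acaa2 is low in all 6 TAC libraries, whose shares run from 0.874% to 6.78%.

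The order of the TAC libraries divided the genes. Across the list, WT TAC 3 and KO TAC 1 were both the highest of their TAC group for 11 of the 35 genes (Acacb, Acadvl, Acsl1, Cpt1a, Cpt2, Etfdh, Hadha, Lipe, Pnpla2, Slc27a1 and Ucp3). They were both the lowest for 8 (Acads, Acat1, Acot13, Echs1, Eci2, Etfa, Etfb and Slc25a20). These shares, 31.4% and 22.9% of the members, were near the 28.4% and 27.8% of all tested genes. The median log2 level of the 35 genes relative to the sham mean was -1.16 in WT TAC 3 and -0.81 in KO TAC 1, against -1.20 to -1.05 in the other 4 TAC libraries.

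The genotypes were then compared directly. After sham surgery 0 of the 35 genes differed between KO and WT, after TAC 0 differed, and for 0 did the response to TAC differ (edgeR interaction test). Of all 14619 genes 0% were called in each of these 3 comparisons, while DESeq2 called 3, 6 and 2 of all genes and limma-voom 0. At an unadjusted p under 0.05 there was 1 member after sham (Acot1), 0 after TAC and 0 for the interaction, against 1.27%, 6.36% and 2.97% of all genes, and DESeq2 and limma-voom also called 0 of the 35. KO minus WT after sham ran from -0.39 (Lpl) to 1.32 (Acot1), with 31 of the 35 within 0.5 of 0. After TAC it ran from -0.63 (Acot13) to 1.11 (Ucp3), with 27 within 0.5, and the smallest adjusted p was 0.747. Standard errors were 0.27 to 0.72 after sham and 0.24 to 0.64 after TAC. For the wider ones a 2-fold difference lies within 2 standard errors and was not detectable. Differences beyond 2 standard errors could also be missed, because p was adjusted over all 14619 genes. Acot1 after sham (1.32 ± 0.50) was such a case and did not pass. These missed thresholds do not show that the genotypes were alike.

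The 3 genes with the smallest interaction p were Ehhadh (-0.80 ± 0.45, KO minus WT log2 change), Acot2 (-0.89 ± 0.50) and Etfb (-0.69 ± 0.51), each with an edgeR adjusted p of 0.992 (quasi-likelihood test across all genes). In all 3 the estimate was lower in KO. For Acot2 the KO sham libraries were above both WT sham libraries (0.81 ± 0.38), while the TAC groups were close (-0.08 ± 0.33). For Ehhadh and Etfb KO minus WT after TAC was -0.53 ± 0.30 and -0.43 ± 0.34, and neither passed. In the other direction the interaction was 0.78 ± 0.69 for Acacb, 0.59 ± 0.55 for Cpt1b and 0.54 ± 0.59 for Acsl1. The interaction estimates of the 35 genes had standard errors of 0.36 to 0.93.

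**Figure D4:**
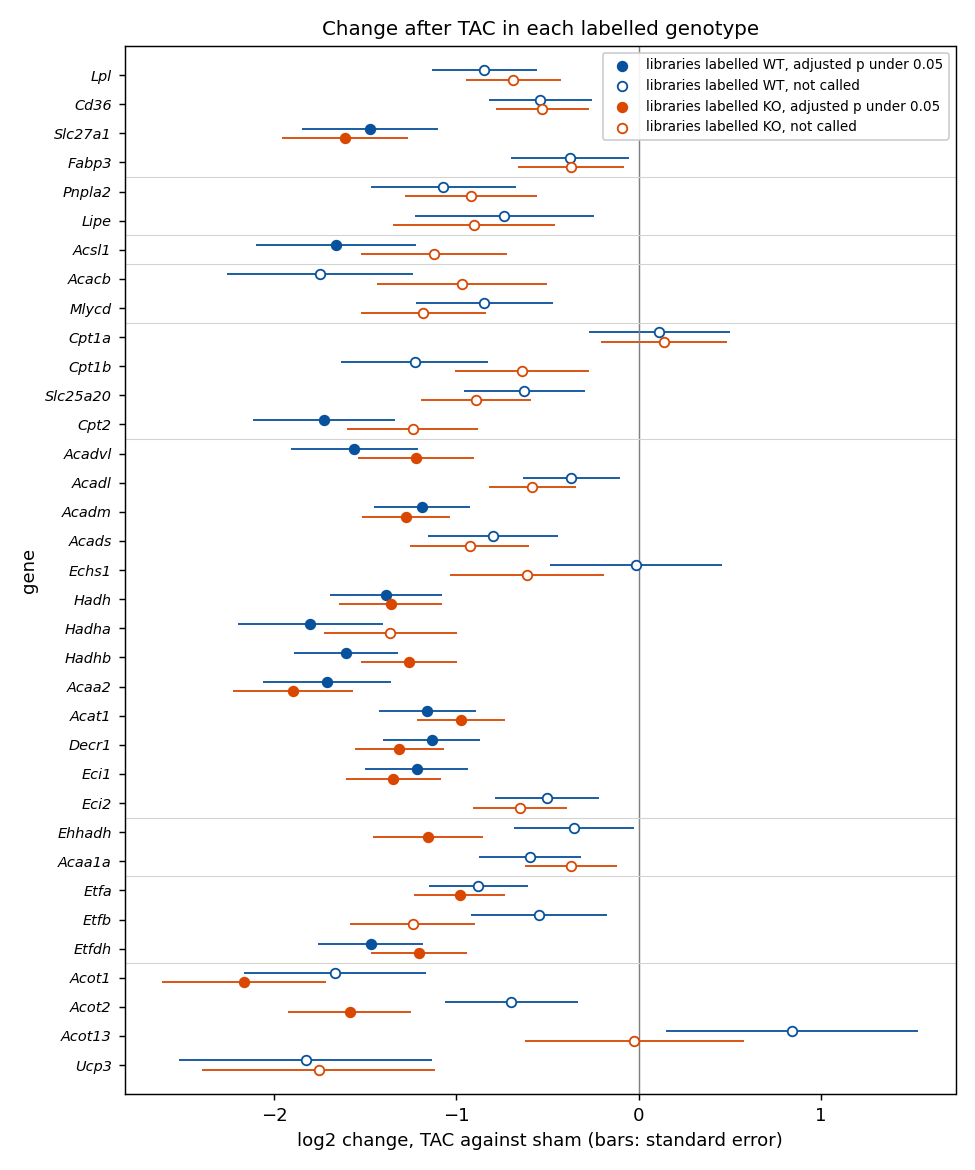
Log2 change after TAC against sham (horizontal axis) with its standard error (bars) for each of the 35 genes (vertical axis, by step) in libraries labelled WT (blue, 3 against 2) and KO (orange, 3 against 3); filled points passed the adjusted threshold. All points lie left of 0 but 3: both points of Cpt1a and the WT point of Acot13 lie right of it.

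Fatty acid genes outside the 35 were counted from lists written with earlier results of these data known. Among 23 tested genes of uptake, activation and storage 6 were lower and 2 higher over both genotypes (median -0.23). Of all genes tested 8.96% were lower and 10.6% higher, so the 2 higher genes were no more than that share. Dgat2, the last enzyme of triglyceride synthesis, was 2.73-fold lower (-1.45 ± 0.22; edgeR adjusted p = 0.000676). Slc22a5, the carnitine importer, Acss1, the mitochondrial acetyl-CoA synthetase, and Crat, carnitine acetyltransferase, changed by -1.12 ± 0.17, -1.13 ± 0.18 and -1.42 ± 0.26 and were also lower. The higher genes, named after their values were seen, were Fabp5 (1.16 ± 0.23), a binding protein also made by endothelium and macrophages, and Acsl5 (0.53 ± 0.16).

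Among 24 tested genes of other oxidation steps 13 were lower and 1 higher over both genotypes (median -0.67), against 8.96% and 10.6% of all genes tested. Ech1, which moves double bonds during beta-oxidation, measured 1277 to 2707 CPM in sham and 405 to 668 CPM in TAC libraries and was lower in WT (-1.79 ± 0.36) and in KO (-2.10 ± 0.34; edgeR adjusted p = 0.015 and 0.00508). Pcca and Mut, of the route from propionyl-CoA to succinyl-CoA, and Amacr, a racemase of branched fatty acids, were also lower, with log2 changes of -1.003, -1.11 and -1.003. The higher gene, named after its values were seen, was the thioesterase Acot9 (1.38 ± 0.38). It measured 159, 131 and 44.4 CPM in WT TAC and 25.9, 62.0 and 63.5 CPM in KO TAC, against 23.9 to 32.6 CPM in sham libraries, and was again lowest in WT TAC 3 and KO TAC 1 of their groups.

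Among ketone body genes Oxct1, which activates ketone bodies for oxidation, was lower over both genotypes (-0.71 ± 0.18; edgeR adjusted p = 0.0134). Acat2 (0.28 ± 0.33) and Bdh1 (-0.20 ± 0.26) did not pass. Bdh1, the dehydrogenase that opens the use of hydroxybutyrate, is given in every library after its values were seen and measured 265 and 204 CPM in WT sham, 66.8, 96.2 and 124 in KO sham, 116, 141 and 128 in WT TAC and 136, 144 and 91.2 in KO TAC. The WT sham libraries stood above all others, and KO minus WT after sham was -1.29 ± 0.32, which did not pass over all genes (edgeR adjusted p = 1).

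Of 18 regulators of the pathway 8 were lower and 0 higher over both genotypes (median -0.67), against 8.96% and 10.6% of all genes tested. Ppara, the gene of PPAR alpha, also given in every library after its values were seen, measured 28.6 and 26.3 CPM in WT sham, 15.3, 22.8 and 20.1 in KO sham, 10.6, 9.52 and 12.7 in WT TAC and 17.2, 12.9 and 10.3 in KO TAC. It was lower in WT (-1.33 ± 0.29; edgeR adjusted p = 0.0208) and did not pass in KO (-0.52 ± 0.26; adjusted p = 0.307), where every sham library was below both WT sham libraries. The interaction for Ppara was 0.80 ± 0.39 and did not pass (adjusted p = 0.992). Rxrg, an RXR partner, Klf15, a Krüppel-like factor of muscle fuel use, and Esrrg, an estrogen-related receptor, changed by -0.94 ± 0.20, -1.05 ± 0.27 and -1.05 ± 0.27 over both genotypes and were lower.

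PPAR alpha with RXR binds a direct repeat of a 6-base sequence with 1 base between, called DR1. RefSeq promoter stretches of 300 bases around a start, on GRCm38.p6, were found for 29 of the 35 genes. Of their 33 stretches, 24 had bases 11 to 40 after the start in a GENCODE M21 transcript of the gene. Positions below count from the RefSeq start, which for Cd36 lies inside the annotated gene. The letters AGGTCANAGGTCA, searched on both strands with at most 2 mismatches, were present for 5 of the 29 (17.2%), and for 4.40% of 27025 genes with such a stretch. With no mismatch they were present for 0 of the 29 (0.0481% of all), and the 9 letters TCAAGGTCA bound by estrogen-related receptors also for 0 (0.466% of all). A match describes letters, not a bound site. Matches before the start were found for 4 genes and are shown, with the matched letters in capitals, because Etfa and Ucp3 among them were lower after TAC and Cd36 and Echs1 did not pass. The window of Cd36 is chr5:17835933-17835973 (minus strand, in an intron of Cd36), with the match starting at -63 on the strand opposite to the letters shown. That of Echs1 is chr7:140116478-140116518 (minus, in an intron of Paox), with the match at -83. That of Etfa is chr9:55512294-55512334 (minus, in no annotated gene), at -77 on the opposite strand, and that of Ucp3 is chr7:100472926-100472966 (plus, in an intron of Gm10603), at -51.
Cd36: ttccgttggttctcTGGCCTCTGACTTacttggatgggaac
Echs1: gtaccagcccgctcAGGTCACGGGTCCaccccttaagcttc
Etfa: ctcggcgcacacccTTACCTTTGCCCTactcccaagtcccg
Ucp3: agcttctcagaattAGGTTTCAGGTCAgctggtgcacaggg
The fifth gene, Slc25a20, had its match after the start, which is not shown. Genes with and without a match were both among the 27 lower genes.

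Markers of other cells were read beside these results. Over both genotypes 0 of 10 endothelial markers, 0 of 6 tested fat cell markers and 1 of 2 tested skeletal muscle markers (Tnnt3) were called, the last higher. Endothelial markers, which belong to cells that also hold Cd36 and Lpl protein, summed to 466 to 639 CPM in sham and 353 to 1120 CPM in TAC libraries, the highest being KO TAC 1. Fat cell markers summed to 20.9 to 36.4 CPM in sham libraries and 24.0 to 37.5 CPM in 5 TAC libraries, with 69.7 CPM in WT TAC 3. Skeletal muscle markers summed to 0.393 to 1.81 CPM in sham and 1.48 to 80.1 CPM in TAC libraries. Of the 80.1 CPM in WT TAC 1, 76.3 CPM were Tnnt3, and Myh1, which defines fast skeletal fibres, was at 0 in 10 of 11 libraries. Liver markers summed to at most 3.74 CPM, and Serpina1c and Fgb were at 0 in all 11 libraries. The part of these cells in the levels of the 35 genes was not tested.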

How the data were processed

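Bulk RNA-seq of ventricular myocardium was analysed in 11 libraries. The authors deposited 1 table of raw counts per gene identifier. Per the submitters' processing notes STAR 2.5.1, featureCounts, DESeq2 and GRCm38 were used; their roles, the annotation and the strand setting are not given in the sources used here. Each library held 14770383 to 17333227 counts. GENCODE M21 gave a symbol for 46005 of the 46517 identifiers, and the 512 others held 0.0198% of counts.

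Counts were scaled by TMM, filtered with filterByExpr (14619 genes kept) and fitted with edgeR 4.0.16 (glmQLFit and glmQLFTest, 1 mean per group, R 4.3.3), with Benjamini-Hochberg adjustment over all genes tested and a threshold of 0.05. A second fit had genotype and surgery as terms. The standard error of a log2 change is its size over the square root of F. Alternatives used DESeq2 1.42.0, limma 3.58.1, other scalings, covariates and subsets of libraries. A share or level of 0 allows up to 3 counts in a library, which covers counting error only. The code was tested on simulated data.

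The members and gene lists were chosen with earlier results of these data known. Values in every library are given for up to 3 genes per step with the smallest p over both genotypes and for the 3 genes with the smallest interaction p, and for others where the text says that they were chosen after their values were seen. From the other lists up to 4 genes with the smallest p over both genotypes are named, except 1 result on ketone body genes that is not reported here. Acot1 and Acot2, Acaa1a and Acaa1b, and Fabp3 and its pseudogene share sequence, and 17 of the 35 genes overlap another annotated gene, so without the strand setting their reads cannot be fully told apart.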

Additional observations from a re-analysis of the deposited data

How the results depend on the processing

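No called log2 change of the 35 genes reversed under any alternative. The counts of lower genes after TAC, 13 in WT, 14 in KO and 27 over both genotypes, became 2, 2 and 17 with library totals, where the median of all genes moved to 0.37, 0.49 and 0.45. In KO 23 genes were lower with DESeq2. With the ribosomal protein covariate 8 were lower in WT and 23 in KO, where 536 and 1427 of all genes were called. With the title letter as a covariate 8 were lower in WT, where 608 of all genes were called. With M titles alone 0 were lower in WT and 0 in KO (edgeR) and 19 over both, where 204, 102 and 1526 of all genes were called. With only the groups compared 0 were lower in WT and 9 in KO, where 465 and 584 of all genes were called. In that setting the fit over both genotypes and the interaction were not run. Without both KO TAC 1 and WT TAC 3, 21 were lower and 1 higher in WT and 23 lower in KO, while calls over all genes went to 4373 and 2117. Leaving out 1 library at a time gave 0 to 16 in WT, 1 to 18 in KO and 18 to 28 over both, where the smallest, 18, came without WT sham 1. The causes were not tested. Over all genes 1011 were called in WT, 687 in KO and 0 between genotypes; with no filter on low counts 2243 and 1331 were called, with 20 after sham, 206 after TAC and 80 for the interaction. DESeq2 called 2197 and 1499, and library totals 1381 in KO. No paired analysis was possible because the labels pair no samples and title numbers are not shared between groups. With 2 or 3 libraries a group, standard errors of up to 0.72 (KO against WT after sham) limit what could be detected.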
